A study of Homo sapiens with 6 samples.

Results

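The 45 genes described here encode the actomyosin cytoskeleton of a cell and the machinery that serum response factor (SRF) is known to control: actins, tropomyosins, non-muscle myosins, calponin-type proteins, crosslinkers, SRF with LIM-domain proteins, actin turnover factors, the Arp2/3 complex and the linkers of actin to the plasma membrane. They were chosen by symbol, with earlier results of these data known, and all 45 were found among the 26484 genes of the deposited count tables. The counts came from RNA sequencing of MCF10CA1a, a malignant line of the human MCF10A breast epithelial lineage. It was grown on dishes of 8000 Pa (3 libraries) or 500 Pa (3 libraries). All dishes were coated with Matrigel low in growth factors (0.14 mg/ml), and DMEM/F12 medium with horse serum was renewed on day 4. RNA, labelled as cytosolic, was taken on day 5. The labels call the 3 samples of each stiffness biological replicates. They state no shared day or passage for samples of the same number. Without pairing, p-values refer to the spread between these samples of 1 line. With samples paired by number, they rest on a spread trend common to all genes.

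In adherent cells, actin filaments and non-muscle myosin II form contractile bundles that pull on the matrix through focal adhesions. Monomeric actin holds the coactivators MRTF-A (MKL1) and MRTF-B (MKL2) in the cytoplasm. When actin is driven into filaments, the freed coactivators enter the nucleus and bind SRF, which activates genes through a DNA element called the CArG box. Many genes that build filaments, the SRF gene itself among them, are known targets of SRF, so the level of these transcripts is often read as a sign of tension in epithelial and mesenchymal cells.

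Across the 6 libraries these genes were abundant, taking 3.22, 3.78 and 4.12% of all counts at 8000 Pa, against 4.18, 3.99 and 4.61% at 500 Pa. The ranges overlap at 3.99 to 4.12%. Library totals were 10360236, 9068926 and 10739449 counts at 8000 Pa and 18779742, 8526378 and 8305601 counts at 500 Pa, so that 3 counts, taken as the limit of a library listing none, come to between 0.160 and 0.361 CPM. On the first principal component of all tested genes, with 49.1% of the variance, 8000 Pa replicate 1 stood apart at -62.3, opposite both replicate 3 libraries (35.4 at 8000 Pa and 47.8 at 500 Pa). CPM is a count taken relative to its library's total, and the values below are CPM after TMM scaling, a scaling of library totals that limits the weight of a few abundant genes. All fold changes are on the log2 scale, with 8000 Pa on top and 500 Pa below, and carry a standard error (SE) from the fit.

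Of the 45 genes, 3 were called, and only when same-numbered samples were compared within pairs. TAGLN and DBN1 fell and FHL1 rose on stiff gels. The main test, edgeR's quasi-likelihood test without pairing, called 0 of 11517 tested genes at an FDR of 0.05 (Benjamini-Hochberg), and so 0 of the 42 tested members. At an unadjusted p under 0.05 it gave 282 genes, 2.45% of those tested, and 3 members, which were the same TAGLN, DBN1 and FHL1. The labels state no pairing. The replicate numbers were taken to pair the samples, from the correlation of their deviations in these same data. That correlation does not single out pairing by number. It was 0.184 in pair 2, below the 0.199 of 8000 Pa replicate 1 with 500 Pa replicate 2. With the replicate number as a block, edgeR called 61 genes, 0.53% of those tested (0.26% higher and 0.269% lower at 8000 Pa). The SE and p-values of this blocked fit rest on a spread trend common to all genes. Among the members 3 of 42 passed, or 7.14%. The members were chosen with earlier results of these data known, so the higher share is no independent finding. At an unadjusted p under 0.05 the blocked fit gave 10.6% of all genes and 5 of 42 members (11.9%), the further ones being MYH10 and ACTG1. Leaving out pair 3 ended all 3 calls, and leaving out pair 1 ended those of DBN1 and FHL1.

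TAGLN encodes transgelin, a calponin-type protein that binds along actin filaments and is a classic SRF target of smooth muscle. It lies at chr11:117199321-117204782 on the plus strand (GRCh38, GENCODE). It had 5.74, 11.7 and 13.9 CPM at 8000 Pa, against 30.3, 15.2 and 58.4 CPM at 500 Pa. Every 8000 Pa library lay below every 500 Pa library, with a narrow gap between 8000 Pa replicate 3 and 500 Pa replicate 2. The fold change was -1.64 (SE 0.29) with the block, with an edgeR adjusted p of 2.20e-05, and -1.73 (SE 0.48) without it. Within pairs 1, 2 and 3 the log2 ratio was -2.30, -0.36 and -2.03, so the second pair differed least. The blocked SE and p use a spread trend common to all genes and do not measure the spread of these ratios. In bulk RNA, fewer cells with the transcript and less of it per cell cannot be told apart. Without pair 3 the blocked fold change was -1.34 with an edgeR adjusted p of 0.329, and without pair 2 it was -2.23. Without 500 Pa replicate 3 the unblocked value was -1.09. Of the exonic bases of TAGLN, 11.4% are shared with PCSK7 on the opposite strand, and whether the counting used strand is not given in the sources used here. PCSK7 itself had 59.9, 81.8 and 96.8 CPM at 8000 Pa and 63.3, 84.6 and 83.1 CPM at 500 Pa.

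DBN1 encodes drebrin, which binds the sides of actin filaments and is best known from the dendritic spines of neurons, and lies at chr5:177456608-177474401 on the minus strand. It had 22.3, 52.5 and 43.3 CPM at 8000 Pa, against 65.4, 77.9 and 74.2 CPM at 500 Pa. The groups did not overlap, and 8000 Pa replicate 1 was the lowest library. The fold change was -0.96 (SE 0.24) with the block, at an edgeR adjusted p of 0.0188, and every pair was below 0, at -1.53, -0.56 and -0.77. A blocked DESeq2 fit, which called 0.365% of all genes (0.174% as lower at 8000 Pa), also called TAGLN and DBN1, with DESeq2 adjusted p of 0.00356 and 0.0323, and not FHL1. DBN1 is among the members richest in GC, at 63.4% of its transcript, and a blocked fit corrected for GC content gave -0.62 with an edgeR adjusted p of 0.0730. Without pair 1 the blocked fold change was -0.65 and without pair 3 it was -1.01, with edgeR adjusted p of 0.321 and 0.712.

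FHL1 encodes a LIM-only protein of striated muscle that associates with the sarcomere, and lies at chrX:136146702-136211359 on the plus strand. It was a low transcript with 41, 51 and 32 counts at 8000 Pa, against 15, 24 and 0 counts at 500 Pa. These equal 3.27, 5.38 and 3.19 CPM at 8000 Pa and 0.840, 2.68 and 0 CPM at 500 Pa, so every 8000 Pa library lay above every 500 Pa library. The blocked fold change was 2.04 (SE 0.54), with an edgeR adjusted p of 0.0335, and rests in part on the library at 0. With the GC correction it was 1.85 at an edgeR adjusted p of 0.113. Without pair 1 it was 2.05 and without pair 3 it was 1.51, with edgeR adjusted p of 0.194 and 0.800. Without pair 2 it was 2.87 at an edgeR adjusted p of 0.0381, and without 500 Pa replicate 2 the unblocked value was 2.91, against 1.73 with all libraries.

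**Figure D1:**
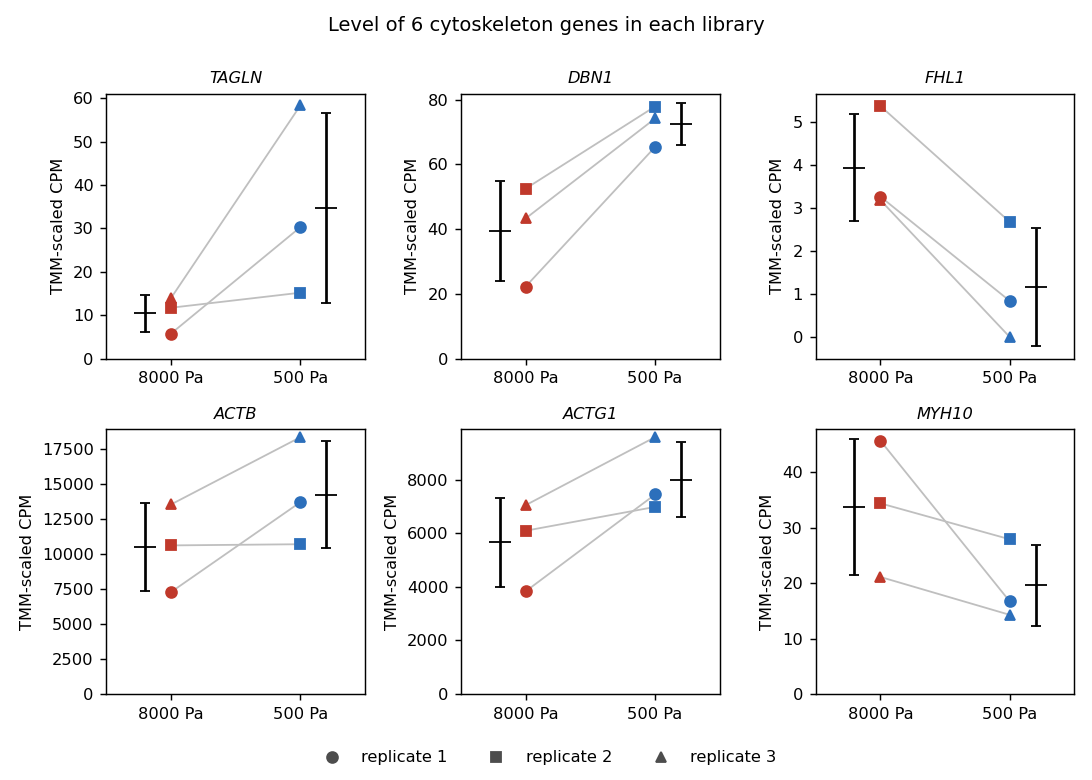
TMM-scaled CPM (linear vertical axes) of 6 genes in each library, 8000 Pa on the left and 500 Pa on the right. Marker shapes give the replicate number, lines join libraries of the same number, and the bars beside the points are mean ± SD (n = 3). TAGLN and DBN1 lie lower and FHL1 higher in every 8000 Pa library, while ACTB, ACTG1 and MYH10 overlap between the groups.

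The control elements known for these genes can be read from the reference sequence. RefSeq windows of 250 bases upstream of annotated starts (GRCh38.p14) were at hand for 40 of the 45 genes. The CArG box was searched as the exact pattern CCWWWWWWGG, where W is A or T, which covers both strands. It was found in 8 of the 40 (20%), against 394 of 27305 genes (1.44%) in the whole table. Variants with a mismatch were not counted, such as ccctatatgg in an ACTA2 window, so a gene without a match may still hold one. By window, it was in 10 of 81 windows of these genes (12.3%) and in 407 of 35116 windows in all (1.16%). An FHL2 box lies in overlapping windows and is counted in each. The members were chosen in part as SRF-regulated genes, so the higher share is no independent finding. A match describes letters and shows no binding. No window was given for ACTB, TAGLN, MYL9, PFN2 and ARPC1B. Shown first, whole, are the windows of ACTG1, of SRF with its pair of boxes, and of FHL1, the called member that has a match, then 30 bases around each other box. Capitals mark the CArG box, each sequence runs 5′ to 3′ on its gene's strand, and the 3 whole windows end at the base before the annotated start.
ACTG1, chr17:81512800-81513049 (minus strand): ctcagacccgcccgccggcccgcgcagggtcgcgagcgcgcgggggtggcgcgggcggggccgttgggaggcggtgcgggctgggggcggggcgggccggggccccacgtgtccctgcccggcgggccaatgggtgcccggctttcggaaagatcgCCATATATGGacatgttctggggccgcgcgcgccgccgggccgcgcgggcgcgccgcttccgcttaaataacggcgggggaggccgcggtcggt
SRF, chr6:43171019-43171268 (plus strand): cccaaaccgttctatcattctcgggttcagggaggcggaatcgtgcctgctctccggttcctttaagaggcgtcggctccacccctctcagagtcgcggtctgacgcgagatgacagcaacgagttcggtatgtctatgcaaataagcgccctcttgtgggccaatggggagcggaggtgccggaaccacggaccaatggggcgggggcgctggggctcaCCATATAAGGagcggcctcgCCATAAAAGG
FHL1, chrX:136196797-136197046 (plus strand): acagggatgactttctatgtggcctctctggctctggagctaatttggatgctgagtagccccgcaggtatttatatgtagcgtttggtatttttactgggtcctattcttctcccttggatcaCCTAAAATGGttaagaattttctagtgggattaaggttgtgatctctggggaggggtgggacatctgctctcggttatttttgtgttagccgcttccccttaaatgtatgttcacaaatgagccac
CNN2, chr19:1026509-1026538 (plus strand): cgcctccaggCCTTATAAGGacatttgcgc
FHL2, chr2:105399091-105399120 (minus strand): gcgtgcatctCCTTATATGGtcaaatgaca
FHL2, chr2:105438595-105438624 (minus strand): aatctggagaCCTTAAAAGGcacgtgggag
FLNA, chrX:154374709-154374738 (minus strand): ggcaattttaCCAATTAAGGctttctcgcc
MYLK, chr3:123620623-123620652 (minus strand): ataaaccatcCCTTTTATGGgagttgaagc
TPM4, chr19:16067355-16067384 (plus strand): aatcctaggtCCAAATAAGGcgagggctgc

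The first base of the box lies 94 bases before the start in ACTG1, FLNA and MYLK, 89 in CNN2, 126 in FHL1 and 173 in TPM4. The pair in SRF begins 30 and 10 bases before the start. In FHL1 the box is in 1 of 12 annotated windows, whose use in these cells was not measured. Of the 8 genes with a box only FHL1 passed with the block, at a fold change of 2.04. TPM4 stood at 0.01, while ACTG1 (-0.53), CNN2 (-0.27), FHL2 (-0.27), FLNA (-0.65), MYLK (-0.65) and SRF (-0.24) lay below 0. Of all 42 tested members 71.4% lay below 0 with the block. TAGLN and ACTB had no window and are not in this comparison. DBN1, the other called member with windows, has no match in its 2 windows.

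As levels per transcript length, the members spanned a wide range. The monomer-sequestering thymosin TMSB10 was highest, at 9042 CPM per kb at 8000 Pa and 11282 at 500 Pa. ACTB followed at 5457 CPM per kb at 8000 Pa and 7423 at 500 Pa, and ACTG1 at 2511 at 8000 Pa and 3554 at 500 Pa. Next came the profilin PFN1, the cofilin CFL1 and the myosin light chain MYL6, all above 1000 CPM per kb on both gels. Smooth muscle forms were low or absent. ACTA2, the smooth muscle alpha actin, stood at 2.05 CPM per kb at 8000 Pa and 2.18 at 500 Pa. CNN1, the smooth muscle calponin, and FLNC, the muscle filamin, had 0 counts in all 6 libraries. MYL9, the smooth muscle regulatory light chain, had 0, 3 and 2 counts at 8000 Pa, against 4, 4 and 3 counts at 500 Pa, too few to test.

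**Figure D2:**
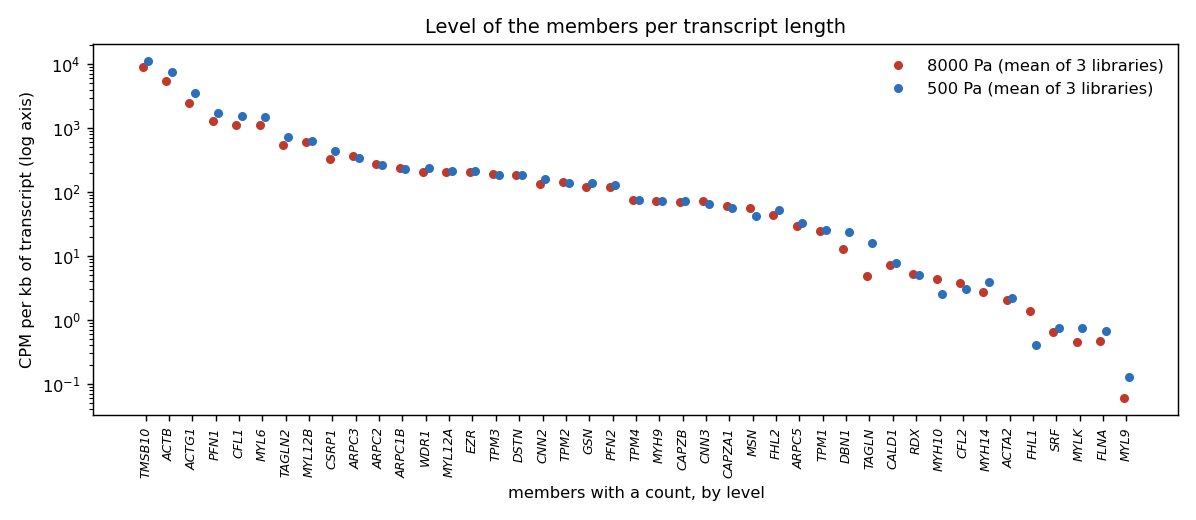
Mean TMM-scaled CPM per kb of transcript (vertical log axis) of the members with a count, ordered by level, at 8000 Pa (left point of each pair) and 500 Pa (right point), each the mean of 3 libraries. TMSB10, ACTB and ACTG1 are highest and MYL9 lowest, and the widest gaps between the points belong to TAGLN and FHL1.

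The mean of each actin was lower on stiff gels, but none of the 3 passed, and the fold change of ACTA2 turned to 0.084 with library size alone as the scaling. ACTB, the cytoplasmic beta actin, had 7282, 10620.1 and 13547 CPM at 8000 Pa, against 13712, 10705 and 18359.7 CPM at 500 Pa. The groups overlapped, with 8000 Pa replicate 1 lowest and 500 Pa replicate 3 highest, and the blocked fold change was -0.45 (SE 0.28) with an edgeR adjusted p of 0.607. ACTG1, the cytoplasmic gamma actin, had 3835, 6102 and 7058 CPM at 8000 Pa and 7457, 6993 and 9601 CPM at 500 Pa, which overlap only between 8000 Pa replicate 3 and 500 Pa replicate 2. Its blocked fold change was -0.53 (SE 0.27), with an edgeR adjusted p of 0.468. ACTA2 differed little, at 2.87, 2.74 and 2.69 CPM at 8000 Pa and 3.24, 2.46 and 3.14 CPM at 500 Pa. The annotation names 10 pseudogenes of ACTB and 20 of ACTG1, so reads of these genes may have been split in counting. Of the exonic bases of ACTA2, 30.1% are shared with genes on the opposite strand.

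Within a library the ratio of gamma to beta actin does not depend on scaling. It was 527, 575 and 521 ACTG1 counts per 1000 ACTB counts at 8000 Pa, against 544, 653 and 523 at 500 Pa. The groups overlapped, and the mean log2 ratio differed by -0.08 (exact permutation test, two-sided, p = 0.6, 0.84 after adjustment over 7 ratios). The exact permutation test of 3 against 3 libraries cannot go below p = 0.1. ACTA2 stood at 0.394, 0.258 and 0.198 counts per 1000 of ACTB at 8000 Pa and at 0.236, 0.229 and 0.171 at 500 Pa, a log2 difference of 0.38 (exact permutation p = 0.4, 0.7 adjusted).

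Tropomyosins lie along actin filaments and set which myosins and severing proteins can reach them. In the main and blocked fits, without the GC correction, their fold changes had the narrowest range among the classes. TPM3, the highest of the 4 per length, had 621, 593 and 575 CPM at 8000 Pa, against 599, 598 and 569 CPM at 500 Pa. TPM1 had 87.6, 114 and 93.9 CPM at 8000 Pa and 81.2, 116 and 110.0 CPM at 500 Pa. TPM4 had 203, 209.8 and 165 CPM at 8000 Pa and 168, 244 and 168 CPM at 500 Pa. In each of these the groups overlapped, and the same held for TPM2, at 163, 172 and 259 CPM at 8000 Pa and 228, 179 and 164 CPM at 500 Pa. Blocked fold changes of the 4 ran from -0.05 to 0.04. With the GC correction as well they ran from -0.19 (TPM1) to 0.31 (TPM2). That range was wider than that of the actins, from -0.34 to -0.075. Within pairs 1, 2 and 3 the log2 ratio of TPM2 was -0.48, -0.05 and 0.65. Of the exonic bases of TPM1, 21.4% are shared with genes on the opposite strand, and the annotation names 8 pseudogenes of TPM3. Their summed level was 1075, 1089 and 1093 CPM at 8000 Pa, against 1076, 1137 and 1011 CPM at 500 Pa. The TPM2 to TPM3 ratio was 263, 290.0 and 450 per 1000 at 8000 Pa and 380.3, 299 and 289 per 1000 at 500 Pa (exact permutation p = 0.9, adjusted 0.9). That of TPM1 to TPM4 was 432, 544 and 568 per 1000 at 8000 Pa and 484, 477 and 654 per 1000 at 500 Pa (exact permutation p = 0.8, adjusted 0.9).

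Of the 7 tested myosin genes none passed. MYH9, the non-muscle myosin IIA heavy chain, had 346, 696 and 577 CPM at 8000 Pa, against 399, 742 and 476 CPM at 500 Pa, and its blocked fold change was -0.01 (SE 0.24). MYH10, the IIB heavy chain, had 45.7, 34.4 and 21.1 CPM at 8000 Pa, against 16.7, 27.9 and 14.3 CPM at 500 Pa. It was higher at 8000 Pa within each pair, by log2 1.43, 0.30 and 0.55, yet the groups overlapped, and the blocked fold change of 0.78 (SE 0.26) had an edgeR adjusted p of 0.191. MYH14, the IIC heavy chain, went the other way in 2 of 3 pairs, at 8.85, 20.7 and 28.1 CPM at 8000 Pa and 22.3, 16.0 and 42.5 CPM at 500 Pa (blocked fold change -0.52, edgeR adjusted p 0.494).

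The ratio of MYH10 to MYH9 was 132, 49.4 and 36.6 per 1000 at 8000 Pa, against 41.9, 37.6 and 30.0 per 1000 at 500 Pa. The high value was 8000 Pa replicate 1, and the groups overlapped (log2 difference 0.78, exact permutation p = 0.3, 0.7 adjusted). The ratio carries no GC correction, and the transcripts hold 49.0% (MYH10) and 58.6% GC (MYH9). With block and GC correction the fold changes were 0.70 for MYH10 and 0.21 for MYH9. The light chains did not pass. The essential light chain MYL6 had 1237, 1504 and 2134 CPM at 8000 Pa and 2030.0, 1396 and 2957 CPM at 500 Pa (blocked fold change -0.36, SE 0.25). The regulatory light chain MYL12B had 679.8, 923 and 682 CPM at 8000 Pa and 793, 757 and 808 CPM at 500 Pa (blocked fold change -0.06, SE 0.24). Of the exonic bases of MYL6, 13.9% overlap other genes. The kinase of the regulatory chains, MYLK, was low, at 3.06 to 5.58 CPM at 8000 Pa and 3.14 to 11.4 CPM at 500 Pa.

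**Figure D3:**
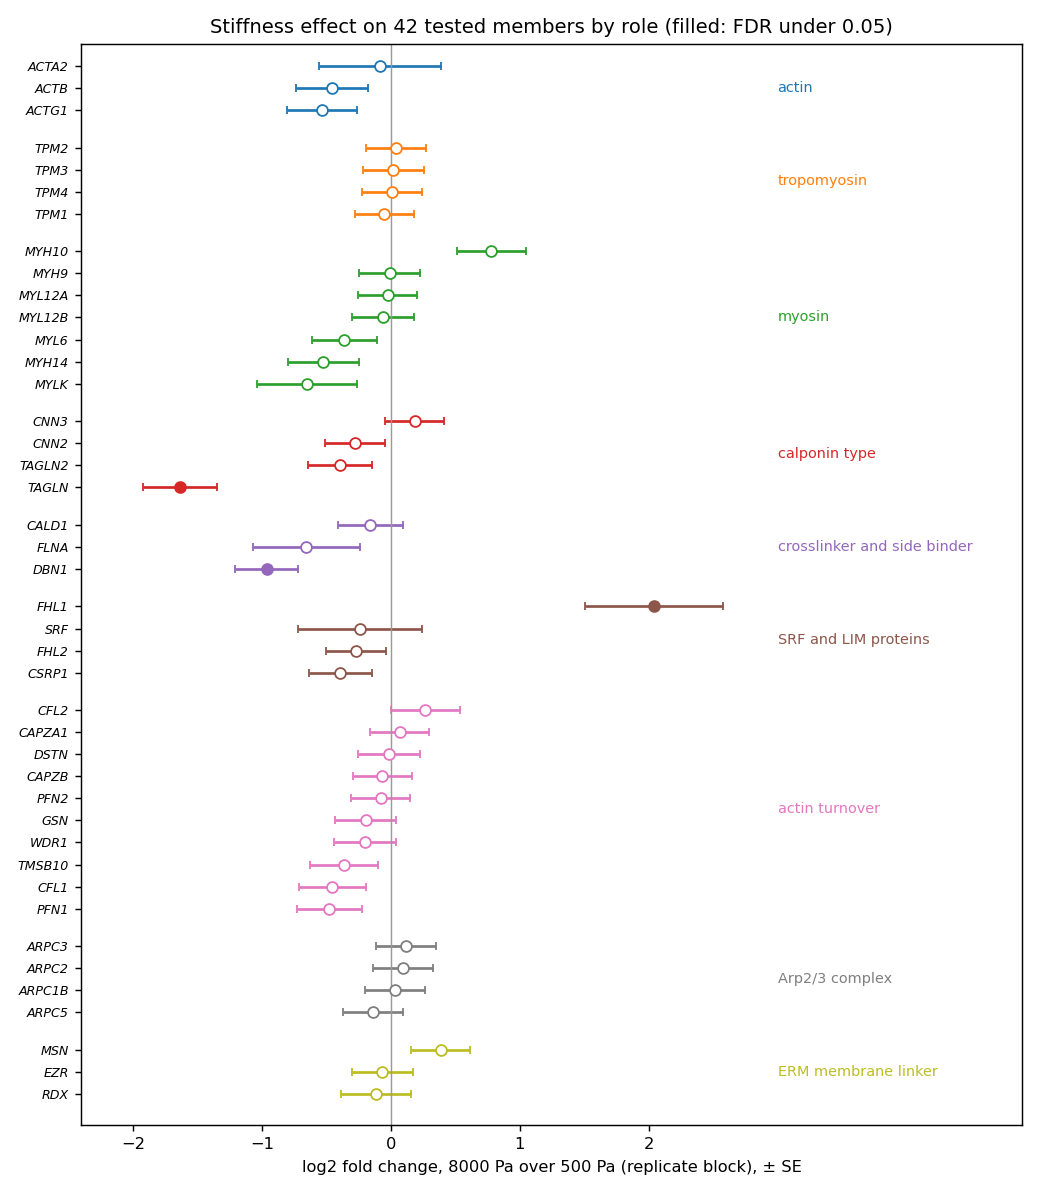
Log2 fold change of 8000 Pa over 500 Pa (horizontal axis) from the edgeR fit with the replicate number as a block, with its SE, for the 42 tested members grouped and coloured by role. Filled points passed an FDR of 0.05, and these are TAGLN at -1.64, DBN1 at -0.96 and FHL1 at 2.04.

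In the calponin-type class the fall of TAGLN was set against its paralog TAGLN2, the form found across epithelia and blood cells. TAGLN2 had 646, 811 and 1167 CPM at 8000 Pa, against 1161, 737 and 1614 CPM at 500 Pa, with overlapping groups and a blocked fold change of -0.39 (SE 0.25, edgeR adjusted p 0.619). TAGLN stood at 8.88, 14.4 and 11.9 counts per 1000 of TAGLN2 at 8000 Pa, against 26.1, 20.6 and 36.2 at 500 Pa. All 3 values at 8000 Pa lay below all 3 at 500 Pa. The log2 difference of -1.22 reached the smallest p that the exact permutation test allows, 0.1, and 0.7 after adjustment over the 7 ratios. The calponins CNN2 and CNN3, which bind actin, did not pass, with blocked fold changes of -0.27 and 0.18. The annotation names 11 pseudogenes of CNN2.

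**Figure D4:**
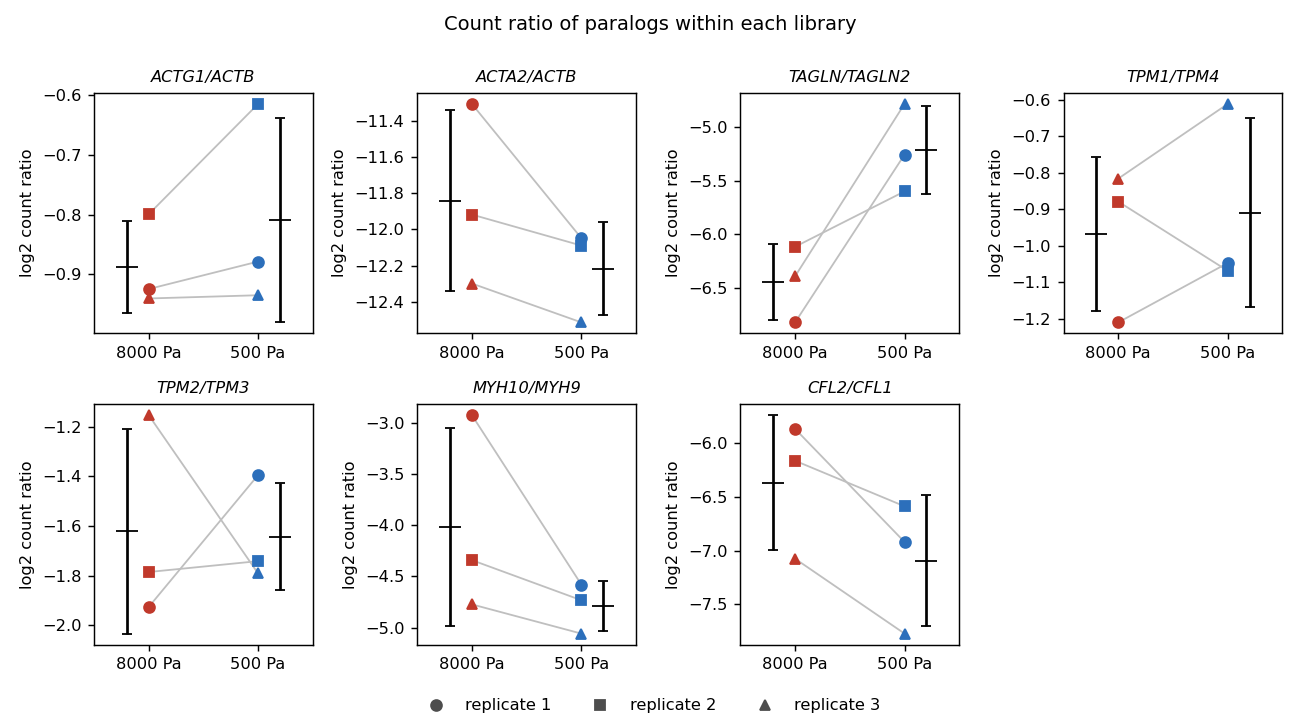
Log2 of the count ratio of paralogs within each library (vertical axes, scaled to each ratio), 8000 Pa on the left and 500 Pa on the right. Marker shapes give the replicate number, lines join libraries of the same number and bars are mean ± SD (n = 3). TAGLN/TAGLN2 is the ratio whose groups do not overlap.

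Among the crosslinkers and side binders, the 4 genes summed to 71.5, 80.5 and 67.4 CPM at 8000 Pa, against 113, 114 and 103 CPM at 500 Pa, with the called DBN1 included. CALD1 and FLNA each overlapped between the groups. Caldesmon (CALD1), which binds actin, tropomyosin and myosin, ran from 19.8 to 47.5 CPM at 8000 Pa and from 24.7 to 40.7 CPM at 500 Pa. Filamin A (FLNA), which crosslinks filaments into networks and ties them to integrins, was low, at 1.68, 5.91 and 4.28 CPM at 8000 Pa and 6.64, 6.70 and 3.85 CPM at 500 Pa. The blocked fold change of -0.65 (SE 0.42) did not pass, at an edgeR adjusted p of 0.625.

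SRF was itself near the lower end of the members in CPM per kb. It had 3.27, 1.48 and 3.39 CPM at 8000 Pa, against 2.73, 3.80 and 2.85 CPM at 500 Pa. Pairs 1 and 3 lay above 0 and pair 2 below, and the blocked fold change was -0.24 (SE 0.48). The LIM proteins CSRP1 and FHL2 stood higher per length. CSRP1, an actin-bundling LIM protein, had 475, 673 and 989 CPM at 8000 Pa and 899, 645 and 1238 CPM at 500 Pa (blocked fold change -0.39, SE 0.24). FHL2, a LIM-only partner of SRF in heart and other tissues, ran from 50.9 to 85.2 CPM at 8000 Pa and from 67.9 to 96.6 CPM at 500 Pa (-0.27, SE 0.23). Both overlapped between the groups.

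None of the 10 actin turnover genes passed, although 8 had a fold change below 0 (their median turned to 0.028 with library size alone as the scaling). CFL1, which severs old filaments, had 1668, 1888 and 2794 CPM at 8000 Pa, against 2982, 1925 and 3928 CPM at 500 Pa (blocked fold change -0.45, edgeR adjusted p 0.555). PFN1, which loads monomers onto growing ends, had 1059, 1719.8 and 2154 CPM at 8000 Pa and 2018, 1968 and 2671 CPM at 500 Pa (-0.48, edgeR adjusted p 0.507). TMSB10 had 3135, 4281 and 6038 CPM at 8000 Pa and 5675, 4912 and 6200.0 CPM at 500 Pa (-0.36, edgeR adjusted p 0.696). In all 3 the groups overlapped and 8000 Pa replicate 1 was lowest.

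The muscle-type cofilin CFL2 had 28.5, 26.3 and 20.7 CPM at 8000 Pa, against 24.6, 20.0 and 18.0 CPM at 500 Pa. Its ratio to CFL1 was 17.1, 13.9 and 7.41 per 1000 at 8000 Pa and 8.25, 10.4 and 4.58 per 1000 at 500 Pa, with overlap (log2 difference 0.72, exact permutation p = 0.3, 0.7 adjusted). The ratio carries no GC correction, and the transcripts hold 37.7% (CFL2) and 57.7% GC (CFL1). With block and GC correction the fold changes were 0.23 for CFL2 and -0.26 for CFL1. The other turnover genes, DSTN, PFN2, WDR1, GSN, CAPZA1 and CAPZB, which sever, cap or supply filaments, had blocked fold changes between -0.20 and 0.07. The annotation names 8 pseudogenes of CFL1 and 10 of PFN1, and 19.0% of the exonic bases of CFL1 overlap other genes.

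The Arp2/3 subunits, which nucleate branched filaments, did not pass in any of the 4 members. ARPC2 had 455, 469 and 422 CPM at 8000 Pa, against 399.9, 511 and 362 CPM at 500 Pa. ARPC3 had 339.6, 417 and 372 CPM at 8000 Pa and 329, 354 and 354 CPM at 500 Pa. ARPC5 had 251, 198 and 194 CPM at 8000 Pa and 234, 271 and 203 CPM at 500 Pa. All overlapped between the groups. Of the exonic bases of the remaining subunit ARPC1B, 32.4% are shared with other genes. The 4 subunits together had 1368, 1433 and 1529.6 CPM at 8000 Pa and 1322, 1495 and 1361 CPM at 500 Pa.

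Of the 3 linkers of actin to the plasma membrane, moesin (MSN) had 188, 222 and 252 CPM at 8000 Pa, against 182, 179 and 143 CPM at 500 Pa. Every 8000 Pa library was above every 500 Pa library, yet the blocked fold change of 0.39 (SE 0.23) had an edgeR adjusted p of 0.589. With MSN, 4 of 42 members (9.52%) did not overlap between the groups, MSN and FHL1 above and TAGLN and DBN1 below, beside 6.87% of all tested genes (4.02% above and 2.85% below). Ezrin (EZR), the main linker of epithelial microvilli, had 565, 658 and 684 CPM at 8000 Pa and 629, 711 and 651 CPM at 500 Pa. Radixin (RDX) had 40.2, 18.4 and 11.3 CPM at 8000 Pa and 29.9, 20.1 and 18.6 CPM at 500 Pa. Both overlapped, and the first library at 8000 Pa was the highest for RDX.

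Over all 42 tested members the fold change lay below 0 in 30 (71.4%) with the block, beside 50.6% of all tested genes. Without the block it lay below 0 in 29 (69.0%), beside 48.8% of all tested genes. The median was small, at -0.10 with the block and -0.08 without it, against -0.01 and 0.01 for all tested genes. Class medians with the block were -0.45 for actins, -0.65 for crosslinkers, -0.33 for the calponin type, -0.25 for SRF with LIM proteins, -0.14 for turnover, -0.07 for membrane linkers, -0.06 for myosins, 0.01 for tropomyosins and 0.06 for Arp2/3. Actins, crosslinkers and membrane linkers had 3 tested genes each, so their medians are the single values of ACTB, FLNA and EZR. The other classes had 4 to 10 tested genes. With library size alone as the scaling the median was 0.17 for all tested genes and 0.08 for the members, a like distance of -0.09. These figures describe members chosen with earlier results of these data known, and carry no test.

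These medians moved with GC content in 1 pair. Across the 42 members, the Spearman correlation of the within-pair ratio with transcript GC content was -0.73 in pair 1, -0.12 in pair 2 and -0.18 in pair 3. Over 11367 genes it was -0.62, 0.06 and 0.02. Genes of a library share its depth and preparation, so these are descriptions across genes. In pair 1 the 21 members richer in GC (51.8 to 63.7%) had a median log2 ratio of -0.84 and the 21 poorer in GC (37.7 to 51.2%) had 0.10. In pair 2 these medians were -0.04 and -0.03, and in pair 3 they were -0.19 and 0.03. With block and GC correction together the medians of the richer and poorer members were -0.20 and -0.13, that of the actins -0.31, and edgeR called 0.66% of all genes (0.234% as lower at 8000 Pa). TAGLN was the 1 member that passed, at -1.49 with an edgeR adjusted p of 0.00145.

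**Figure D5:**
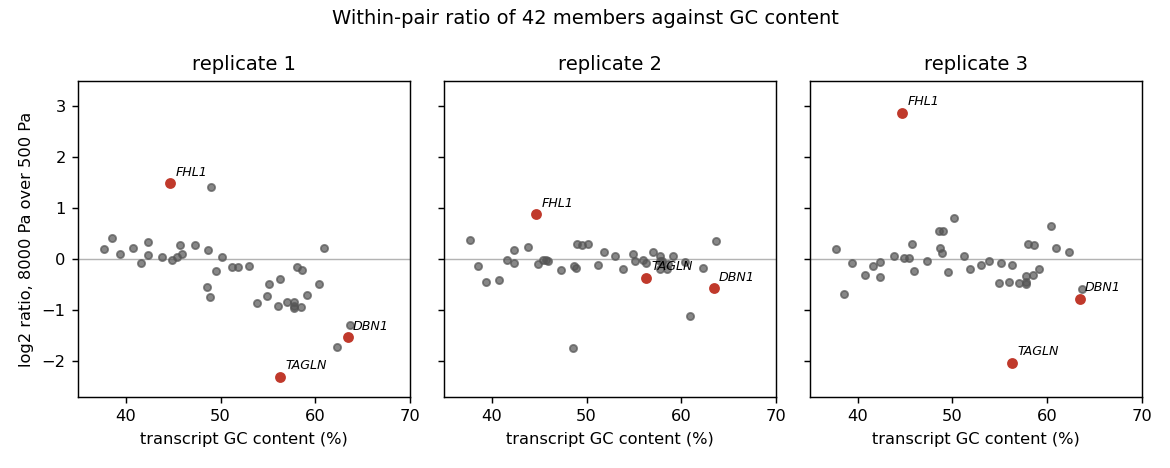
Within-pair log2 ratio of 8000 Pa over 500 Pa (vertical axis, with 0.5 CPM added to both) against transcript GC content in percent (horizontal axis) for the 42 tested members, a panel for each replicate number. Red points are the called members TAGLN, DBN1 and FHL1. The points slope down in replicate 1 (Spearman correlation -0.73) and much less in replicate 2 (-0.12) and replicate 3 (-0.18).

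Genes around the members were followed in 3 further lists. In the list of SRF and MRTF targets outside the members, 21 of 29 genes were tested and 0 passed with the block. An unadjusted blocked edgeR p under 0.05 was found in 3 of the 21, beside 10.6% of all tested genes. The median fold change was 0.01. The focal adhesion LIM proteins TGFB1I1 and PDLIM7 had the smallest p. TGFB1I1 had 4.71, 7.07 and 10.6 CPM at 8000 Pa, against 17.5, 9.71 and 15.4 CPM at 500 Pa (-0.97, edgeR adjusted p 0.179). PDLIM7 had 46.6, 66.8 and 99.6 CPM at 8000 Pa and 119, 64.9 and 139 CPM at 500 Pa (-0.60, edgeR adjusted p 0.299). In both the groups overlapped. CYR61 and CTGF, matricellular genes often used as readouts of a stiff matrix, had 2.07, 5.38 and 5.58 CPM and 0.960, 0.840 and 1.19 CPM at 8000 Pa, against 1.79, 4.91 and 2.71 CPM and 0.780, 2.46 and 0.430 CPM at 500 Pa. They were chosen after their values were seen, and neither passed.

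Among signalling genes, CIT, the citron kinase of cytokinesis, passed with the block. It had 61.3, 58.7 and 43.4 CPM at 8000 Pa, against 23.9, 42.8 and 23.1 CPM at 500 Pa, without overlap. The blocked fold change was 0.91 (SE 0.25), with an edgeR adjusted p of 0.0457, and 0.90 with the GC correction as well, with an edgeR adjusted p of 0.0130. Without pair 1 or pair 3 the blocked value was 0.69 or 0.96, at edgeR adjusted p of 0.315 or 0.850, and DESeq2 with the block gave an adjusted p of 0.0987. The coactivator MKL2 had 34.5, 29.0 and 19.6 CPM at 8000 Pa, against 13.4, 22.9 and 16.4 CPM at 500 Pa, and did not pass (0.66, edgeR adjusted p 0.319).

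Among other turnover and nucleation genes 48 of 52 were tested and 0 passed with the block, with a median of -0.07. An unadjusted blocked edgeR p under 0.05 was found in 2 of the 48, beside 10.6% of all tested genes. The actin bundler LCP1 and the twinfilin TWF2 had the smallest p. LCP1 had 5.11, 4.01 and 1.10 CPM at 8000 Pa, against 2.51, 1.79 and 0.290 CPM at 500 Pa (1.22, edgeR adjusted p 0.355). TWF2 had 87.4, 132 and 182 CPM at 8000 Pa, against 190.2, 137 and 246 CPM at 500 Pa (-0.53, edgeR adjusted p 0.356). Both overlapped. Among other myosins 14 of 22 were tested and 0 passed, with a median of 0.24, beside -0.01 for all tested genes. Within pairs 1, 2 and 3 the median was 0.61, -0.06 and 0.04, so pair 1 stood apart. Of these 14, 2 had an unadjusted blocked edgeR p under 0.05, beside the same 10.6% of all tested genes. MYO1E, a membrane-linked class I myosin, had 89.4, 78.5 and 70.2 CPM at 8000 Pa, against 55.6, 71.1 and 38.1 CPM at 500 Pa (0.57, edgeR adjusted p 0.323). MYO10, the myosin of filopodial tips, had 57.6, 40.3 and 38.5 CPM at 8000 Pa and 25.7, 46.0 and 23.0 CPM at 500 Pa (0.58, edgeR adjusted p 0.355).

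The cells showed the epithelial markers that the line is labelled for. The 8 epithelial markers summed to 10890.5, 15429.8 and 21121 CPM at 8000 Pa, against 20549, 14029.7 and 26300.4 CPM at 500 Pa, with overlap. Single markers differed in direction, and none of the 8 passed. The junction cadherin CDH1 had 405, 426 and 388 CPM at 8000 Pa, against 253, 377 and 268 CPM at 500 Pa, without overlap (edgeR adjusted p 0.461 with the block). The basal keratin KRT17 had 880.0, 1111 and 1633 CPM at 8000 Pa and 2405, 1176 and 3156 CPM at 500 Pa (edgeR adjusted p 0.117 with the block). Of the smooth muscle markers MYH11 and MYOCD were at 0 in all libraries and 2 of 7 were tested. The 7 summed to 21.3 to 38.4 CPM at 8000 Pa and 28.2 to 42.7 CPM at 500 Pa. ACTG2, the smooth muscle gamma actin, had 2.79, 3.17 and 3.58 CPM at 8000 Pa, against 7.81, 3.01 and 8.28 CPM at 500 Pa. It overlapped and did not pass (blocked fold change -0.92, edgeR adjusted p 0.389), with pairs at -1.34, 0.06 and -1.10 beside -2.30, -0.36 and -2.03 for TAGLN. SMTN, the other tested marker, did not fall (blocked fold change 0.05, edgeR adjusted p 0.983), with pairs at -0.20, 0.35 and 0.001. LMOD1 had 4, 3 and 5 counts at 8000 Pa, against 0, 1 and 0 counts at 500 Pa, too few to test. Of the 8 fibroblast markers COL1A2, COL3A1, THY1 and LUM were at 0, and the sum was 1.79 to 4.64 CPM at 8000 Pa and 1.23 to 1.86 CPM at 500 Pa. Of the 5 endothelial markers PECAM1 and CDH5 were higher at 8000 Pa, while TEK was at 0 and VWF at most 0.43 CPM. PECAM1 had 203, 241 and 212 CPM at 8000 Pa, against 97.9, 145 and 89.1 CPM at 500 Pa (edgeR adjusted p 0.00537 with the block). CDH5 had 4.71, 10.2 and 16.1 CPM at 8000 Pa and 1.12, 3.46 and 3.14 CPM at 500 Pa (edgeR adjusted p 0.000314). The part of these markers in the values of TAGLN, DBN1 and FHL1 was not tested.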

How the data were processed

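Each library has a deposited table that pairs gene symbols with raw counts, whole numbers with no scaling, and with a log2 value. Per the file headers the latter column holds TMM-scaled log2 expression made by the authors. It is filled in for 8593 genes and served as a check: for the 37 members with 50 counts or more in all 6 libraries it lay within 0.0859 of TMM log2 CPM computed here. The submitters' processing notes list HISAT2 2.1.2, HTSeq 0.11.4, limma, DESeq2 and GRCh38. The annotation release, the treatment of reads that fit several places and strandedness are not stated in those notes or in the labels.

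The deposited counts were fitted in edgeR 4.0.16 (R 4.3.3). filterByExpr (minimum count 10, minimum total 15) left 11517 of 26484 genes. TMM scaling and the quasi-likelihood test were used, with Benjamini-Hochberg adjustment over these genes at an FDR of 0.05. Stiffness alone was the main design. Deviations from the group means correlated at 0.409, 0.184 and 0.516 between samples of the same number, and at 0.199 or less between others. Each of the 3 is over 0.1, so the numbers were taken to pair the samples. The pairing comes from the labels' numbers and this correlation, since no shared day is stated. The 0.199 of 8000 Pa replicate 1 with 500 Pa replicate 2 is also over 0.1 and above the 0.184 of pair 2. The rule therefore does not single out pairing by number. The blocked fit has 2 residual degrees of freedom and its p-values rest on a spread trend common to all genes. All 6 libraries were kept, since each pair differed by more than sampling noise (chi-square per degree of freedom at least 11.0). Alternatives were DESeq2 1.42.0, limma-voom (limma 3.58.1), other scalings, no filter, a lowess correction for GC content, and leaving out libraries or pairs. The steps were tested on simulated data drawn with a shared replicate effect and the spread of the blocked fit. That simulation assumes the pairing and does not test it.

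Members and lists were chosen with earlier results of these data known. Values in every library are given for called members, for the most abundant member of each role and its pair of smallest blocked p, for ACTB, ACTA2, SRF, TAGLN, FHL1 and the genes of the ratios, and, in the further lists, for called genes and the pair of smallest blocked p. Of 8 planned ratios, MYL9 to MYL12B had a count of 0 and gave no value. Coordinates, lengths, GC content and overlaps come from GENCODE on GRCh38, and upstream sequences from RefSeq on GRCh38.p14. Floors cover counting error only. Of a further list of signalling genes, CIT (called) and MKL2 are given and the rest is not reported here, nor is 1 other gene.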

Additional observations from a re-analysis of the deposited data

How the results depend on the processing

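No member was called without the replicate block, in the main edgeR fit or with other size factors, library size alone, no filter, DESeq2, limma-voom, a GC correction or any library left out. Over all genes the counts of calls were 0 in the main fit, 8 with no filter, 7 with DESeq2 and 0 to 1 with a library left out, the single call coming without 500 Pa replicate 3. With the replicate block edgeR called 61 genes and 3 members, and with the block and GC correction 76 genes and 1 member (TAGLN). DESeq2 with the block called 42 genes and 2 members. With the block and pair 1, 2 or 3 left out there were 38, 81 and 12 genes and 1, 3 and 0 members. TAGLN, DBN1 and FHL1 kept their direction in all 18 alternatives. For each of them the groups do not overlap and the 3 pairs share a sign. Leaving out a library or a pair could therefore not turn the direction, and the other alternatives refit the same libraries. Library size in place of TMM moved the median of all genes to 0.17, so that the medians of tropomyosins (0.17), turnover (0.028), Arp2/3 (0.22), membrane linkers (0.26) and all members (0.084) shifted with it, while the members' distance to all genes was -0.09 with both scalings. That distance was -0.14 with the block and GC correction, and ran from -0.185 (without 8000 Pa replicate 3) to -0.039 (without 8000 Pa replicate 1) with 1 library left out.

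Median fold changes under the GC correction were -0.13 for tropomyosins and -0.088 for membrane linkers. With the block as well they were -0.12 and -0.087, and -0.14 for all members. DESeq2 with the block gave -0.073 for membrane linkers. With 1 library left out the medians ran from -0.22 to -0.030 (myosins) and from -0.027 to 0.31 (membrane linkers). With the block and 1 pair left out they ran from -0.040 to 0.076 (tropomyosins) and from -0.042 to 0.21 (membrane linkers). The log2 differences of ratios ran from -0.14 to 0.019 (ACTG1/ACTB), -0.14 to 0.089 (TPM1/TPM4) and -0.21 to 0.17 (TPM2/TPM3). These sign changes, and those that follow, are of uncalled values near 0, and their cause was not tested.

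Among the members given in every library, signs turned for ACTA2 (0.084), ARPC5 (0.027), EZR (0.084), MYL12B (0.12), TPM1 (0.098) and TPM4 (0.15) with library size alone, and for TPM4 (0.025) with no filter. They turned with the GC correction for ARPC2 (-0.0094), ARPC3 (-0.012), RDX (-0.16), SRF (0.13) and TPM3 (-0.13), and with the block as well for ARPC2 (-0.0061), ARPC3 (-0.032), RDX (-0.17), SRF (0.081) and TPM3 (-0.13). With the replicate block they turned for MYH9 (-0.0070), RDX (-0.11) and TPM4 (0.010), with DESeq2 and the block for MYH9 (-0.014), RDX (-0.12) and TPM4 (0.0030), and with limma-voom for MYH9 (-0.0061), RDX (-0.15) and TPM4 (0.013). MYH9 was -0.0058 with DESeq2 and with its size factors in edgeR.

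With 1 library left out in turn, the fold changes ran from -0.21 to 0.0017 (ACTA2), -0.097 to 0.016 (EZR), -0.87 to 0.041 (MYH14), -0.22 to 0.30 (MYH9), -0.21 to 0.044 (MYL12B), -0.63 to 0.40 (RDX), -0.35 to 0.093 (SRF), -0.19 to 0.046 (TPM1), -0.16 to 0.22 (TPM2), -0.010 to 0.071 (TPM3) and -0.076 to 0.20 (TPM4). With the block and 1 pair left out in turn they ran from -0.20 to 0.036 (ACTA2), -0.24 to 0.019 (ARPC5), -0.097 to 0.11 (MYH9), -0.23 to 0.083 (MYL12B), -0.39 to 0.21 (RDX), -0.51 to 0.25 (SRF), -0.11 to 0.092 (TPM1), -0.22 to 0.32 (TPM2) and -0.10 to 0.13 (TPM4, 0.079 without pair 3). Groups of 3 limit all of these values, and genes of few counts such as FHL1, SRF and MYL9 are limited further by depth.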
